A study of Mus musculus with 28 samples.

Results

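The interferon-stimulated and antigen presentation genes described here are a list of 39 mouse genes, chosen by name, out of 21935 genes in the counts table. They fall into 12 antiviral effector genes, 2 sensors of viral RNA, 5 transcription factors, 5 interferon-inducible GTPases, 9 genes of the MHC class I pathway and 6 genes of the MHC class II pathway. All 39 were in the table and all 39 passed the filter on low counts. The values are from poly(A) RNA sequencing of whole liver from 28 mice, in a study of obeticholic acid (OCA) and INT-787, both agonists of the bile acid receptor FXR. OCA is the bile acid chenodeoxycholic acid with an added ethyl group, and INT-787 is OCA with a further hydroxyl group. All mice were male B6.V-Lepob/JRj, which carry the obese mutation and make no functional leptin. They were bought at 5 weeks of age and fed the AMLN diet, which is used to induce steatohepatitis and has high fat, fructose and cholesterol contents, for 14 weeks before dosing and throughout it. Dosing was oral and daily for 2 weeks with vehicle (n = 10), OCA at 30 mg/kg (n = 9) or INT-787 at 30 mg/kg (n = 9). No group of lean mice or mice on another diet was analysed here, so the values describe treatment within 1 disease model.

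Interferons are secreted proteins that act through cell surface receptors, JAK kinases and STAT transcription factors. Genes induced by type I interferons often carry the interferon-stimulated response element (ISRE) in their promoters, and genes induced by interferon-gamma the gamma-activated site (GAS). The genes they induce include antiviral effectors in nearly all cell types, GTPases that act on the vacuoles of intracellular microbes, and the machinery that cuts and loads peptides on MHC class I. MHC class II genes are driven by the coactivator CIITA and are expressed mainly by dendritic cells, macrophages and B cells, which are a small part of the liver beside hepatocytes.

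Total counts were between 9313260 and 22421506 in 27 mice, and 1009593 in vehicle replicate 6. Vehicle replicate 5 also stood apart. In 30 genes lying opposite the exons of a far more abundant gene, its median level was 2.27 log2 units above the other vehicle mice, while the 27 other mice were at 0.00 to 0.02 against their own groups. Results with and without both mice are given below. The hepatocyte markers fixed for the check of the tissue were high in every group, with Alb, which encodes albumin, at a mean of 74110 CPM in vehicle mice (CPM, the count of a gene scaled to the size of its library).

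Few members changed with either agonist. With INT-787, 5 of 39 members passed the edgeR quasi-likelihood test at a Benjamini-Hochberg adjusted p of at most 0.05 over all 12580 genes tested, which is called here a change. That is 12.8% of the members, beside 19.6% of all genes tested. The RNA sensor genes Ifih1 and Ddx58 and the effector gene Oasl1 were higher, while the effector gene Bst2 and the transcription factor gene Irf8 were lower. With OCA, 1 of 39 members changed, Ifih1, which was higher. That is 2.56% of the members, beside 6.6% of all genes called in either direction and 4.15% called higher. Between INT-787 and OCA, 0 of 39 members changed, beside 5.38% of all genes, with 2.19% higher and 3.19% lower with INT-787. The median log2 fold change of the members was 0.08 with INT-787 and 0.02 with OCA, beside -0.001 and 0.02 over all genes tested. In the edgeR model of all 3 groups, the share of members called was thus below that of all genes in each comparison. With INT-787 this turned with the method and with single mice. DESeq2 called 8 of 39 members (20.5%) beside 19.3% of all genes, and edgeR on the INT-787 and vehicle mice alone called 10 of 39 (25.6%) beside 20.3%. Without INT-787 replicate 8, 11 of 39 members (28.2%) were called beside 18.1% of all genes, and the members' median log2 fold change was -0.15. That mouse was picked out by its high values in these same members, so the 11 calls are no separate test. Without OCA replicate 8, 10 of 39 (25.6%) were called beside 21.7% of all genes. Without vehicle replicates 5 and 6, the counts were 2, 0 and 0, beside 17.3%, 5.47% and 5.61% of all genes. Upper-quartile normalization also gave 5 with INT-787, with H2-Aa and H2-DMa lower in place of the calls of Ddx58 and Oasl1, and moved the share of all called genes that were higher from 51.7% to 37.5%.

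**Figure D1:**
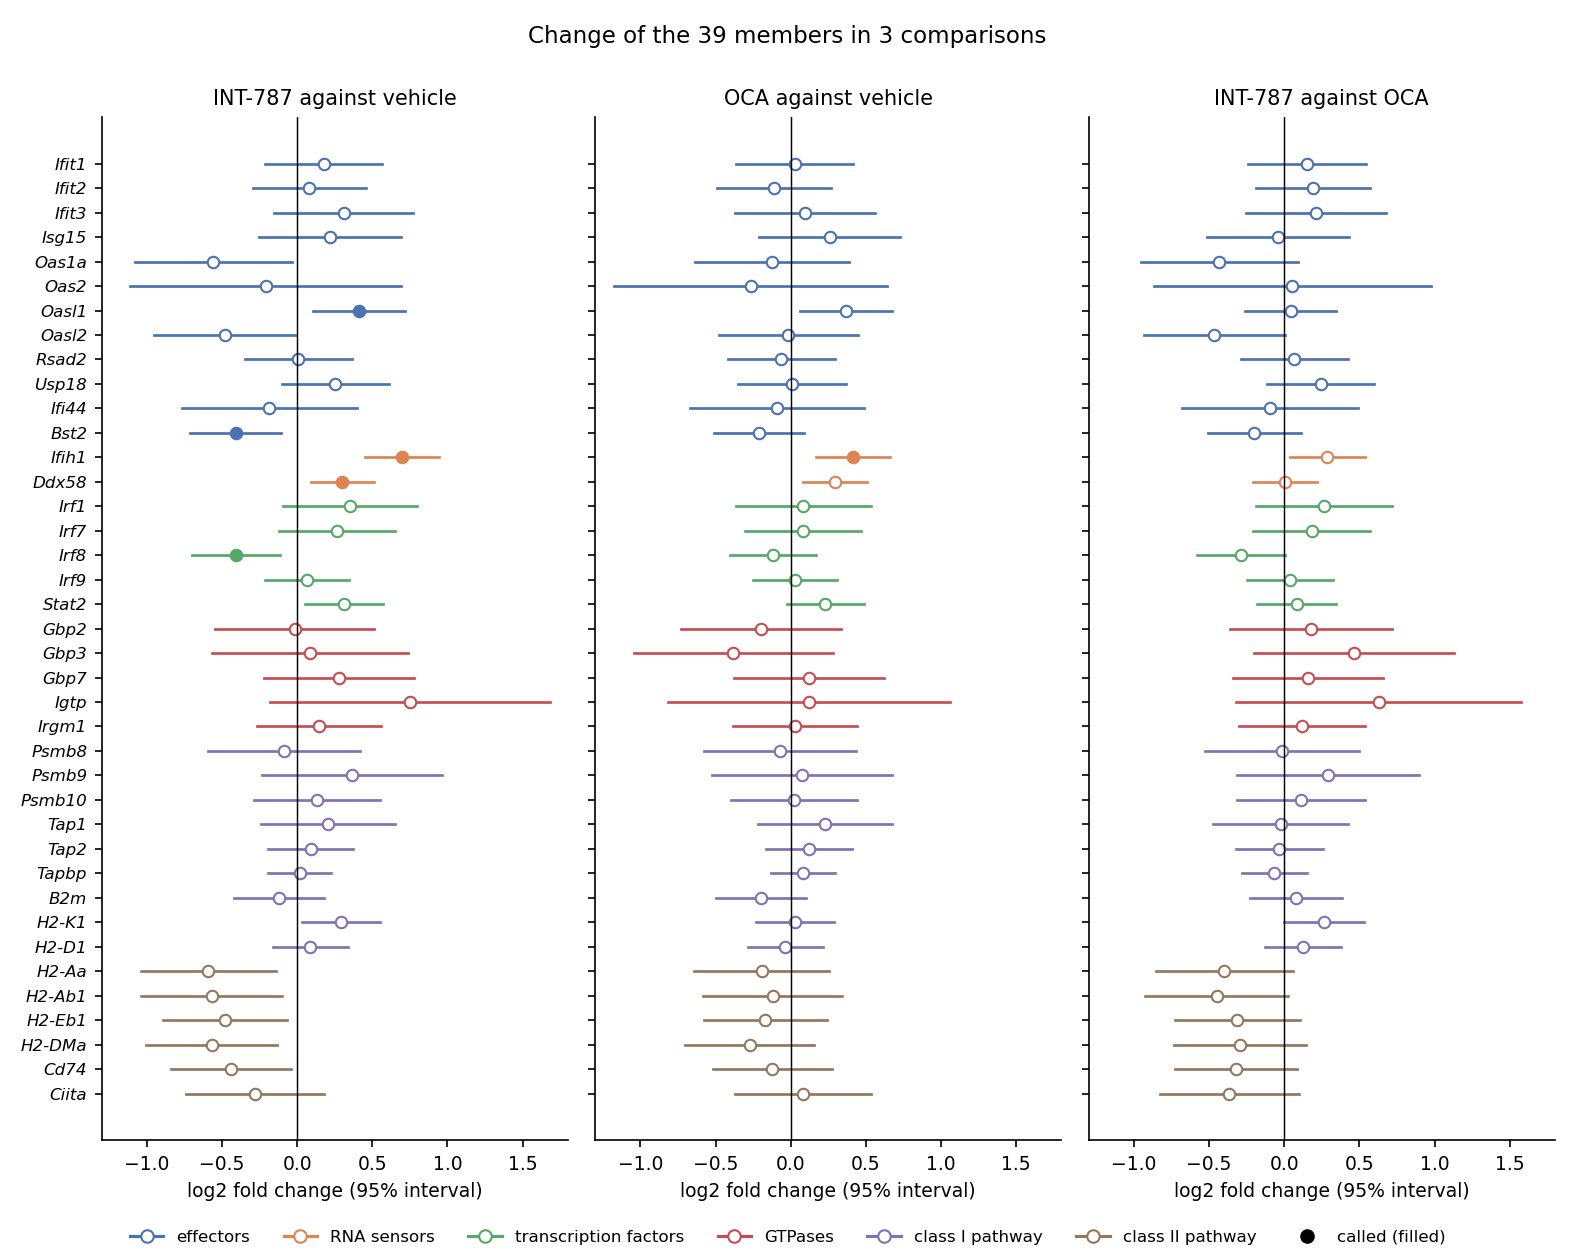
Log2 fold change of each of the 39 members (rows, grouped by role) with its 95% confidence interval, for each agonist relative to vehicle and for INT-787 relative to OCA. Filled points are members called at an adjusted p of at most 0.05: 5, 1 and 0 members in the 3 comparisons.

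Levels per kilobase of exon spanned several orders of magnitude. The highest were those of class I genes: B2m, the invariant light chain of MHC class I, had a mean of 3412 CPM per kilobase over the 28 mice, and the heavy chain genes H2-K1 and H2-D1 had 489.7 and 331.7. Cd74, the invariant chain of MHC class II, followed with 313, and Bst2, which tethers budding virus to the cell surface, with 97.5. At the low end were Ciita with 0.477, Ifi44 with 0.395 and Oas2 with 0.165 CPM per kilobase. The mice spread widely around these means: the coefficient of variation between mice of a group, estimated by edgeR, had a median of 30.3% over the 39 members and 18.7% over all genes tested. It was highest for the GTPases, with a median of 38.9%, and lowest for the RNA sensors, with 16.8%. Precision differed accordingly among the roles. With INT-787 the 95% interval of the log2 fold change lay inside -0.5 to 0.5 for 7 of 39 members and inside -1 to 1 for 33. With OCA it did so for 16 and 36.

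**Figure D2:**
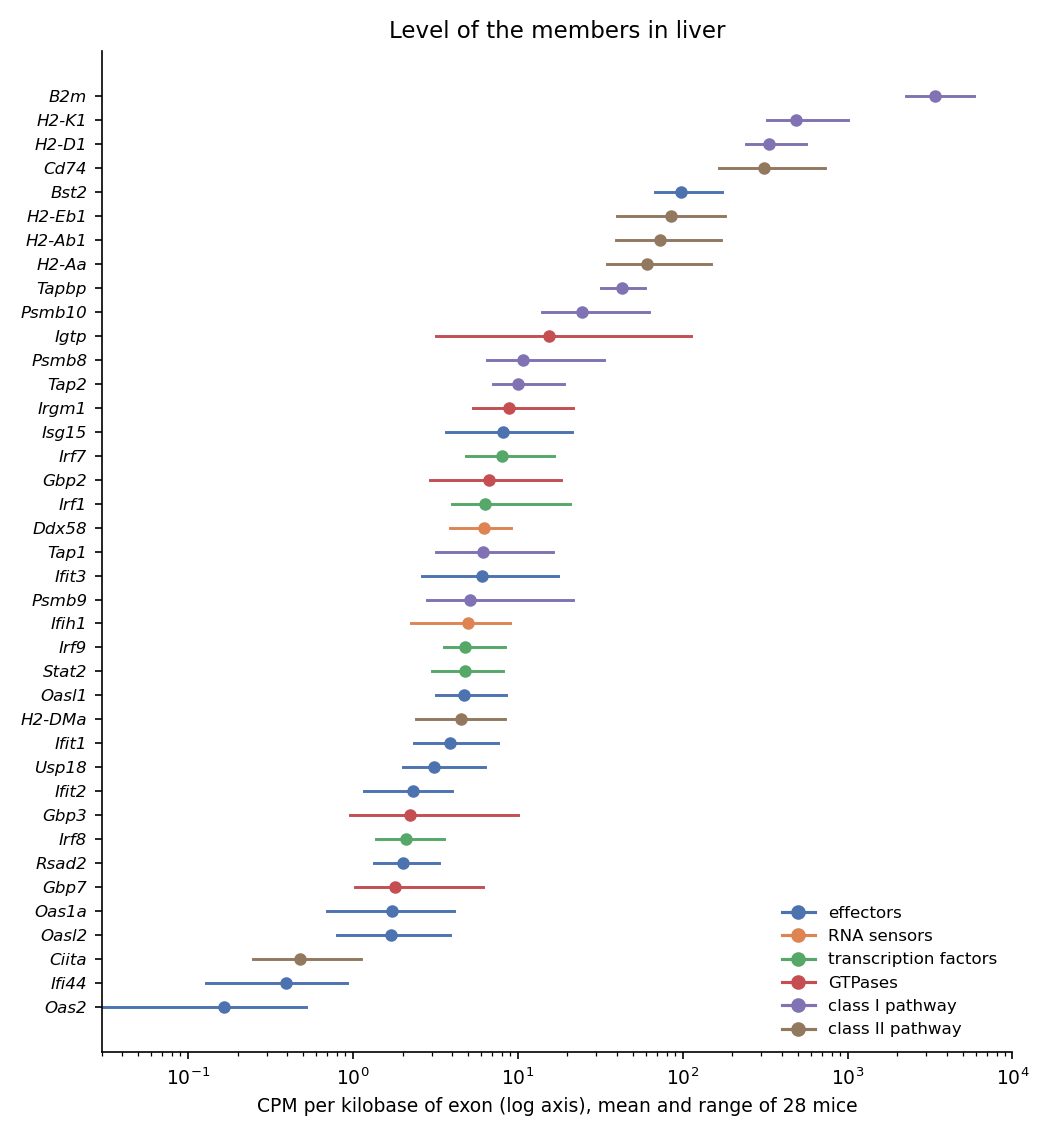
Mean level of each member over the 28 mice in CPM per kilobase of exon (log axis), with a line from the lowest to the highest mouse. The 4 highest are B2m (3412), H2-K1, H2-D1 and Cd74, followed by the effector Bst2 at 97.5, and Ciita, of the class II pathway, is 37th of 39; the line for Oas2 starts at the edge of the axis because its lowest mouse was at 0.

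The RNA sensors were the role in which each member changed with INT-787. Ifih1 (ENSMUSG00000026896, chr2:62595798-62646255, GRCm38) encodes MDA5, a cytosolic helicase that senses long double-stranded RNA. Ifih1 was at 18.4 CPM in the lowest vehicle mouse, 30.8 at the median and 39.1 in the highest. In OCA mice it was at 33.0, 41.5 and 53.5 CPM, and in INT-787 mice at 33.8, 50.6 and 73.6 CPM. In 8 of 9 INT-787 mice and 6 of 9 OCA mice it was above all vehicle mice. Relative to vehicle, the log2 fold change was 0.70 (SE 0.12, edgeR adjusted p = 7.19e-05) with INT-787, or 1.62-fold, and 0.41 (SE 0.12, edgeR adjusted p = 0.0323) with OCA, or 1.33-fold. The change with INT-787 passed the test in all 28 fits that left out 1 mouse and under each of the 11 other alternatives that refitted the counts, with log2 fold changes of 0.62 to 0.76. The change with OCA did not pass without OCA replicate 2, 3 or 9, without vehicle replicate 5, 7, 9 or 10, without vehicle replicates 5 and 6 together, or under upper-quartile normalization, and adjusted p-values reached 0.0847 over all alternatives run.

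Ddx58 (ENSMUSG00000040296, chr4:40203773-40239828, GRCm38) encodes RIG-I, which senses RNA with a free triphosphate end. It was at 27.4 CPM in the lowest vehicle mouse, 39.5 at the median and 45.7 in the highest. OCA mice were at 35.9, 47.4 and 59.2 CPM, and INT-787 mice at 39.5, 45.8 and 64.3 CPM. Each INT-787 mouse was above the median of vehicle mice, and 5 of 9 were above all of them, as were 6 of 9 OCA mice. INT-787 raised it by 0.30 on the log2 scale (SE 0.10, edgeR adjusted p = 0.0366). The estimate with OCA was nearly the same, 0.29 (95% interval 0.09 to 0.50, edgeR adjusted p = 0.0855), and did not pass. The call with INT-787 was lost without INT-787 replicate 1, 3 or 7 and without vehicle replicate 4, 5, 6 or 10, and under 5 of 11 other alternatives, with adjusted p-values of up to 0.0966. RefSeq (GRCm38.p6) places an ISRE match (GAAA, any 2 bases and GAAA, on either strand) within the first 50 transcribed bases of both sensor genes. These stretches are shown because they belong to the 2 members of the role in which each member changed, with the match in capitals. They lie at chr2:62646206-62646235 (minus strand) and chr4:40239796-40239825 (minus strand).
Ifih1: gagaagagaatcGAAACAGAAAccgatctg
Ddx58: agTTTCGATTTCctatggccagccggctag
A match describes these letters and is no measure of binding.

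**Figure D3:**
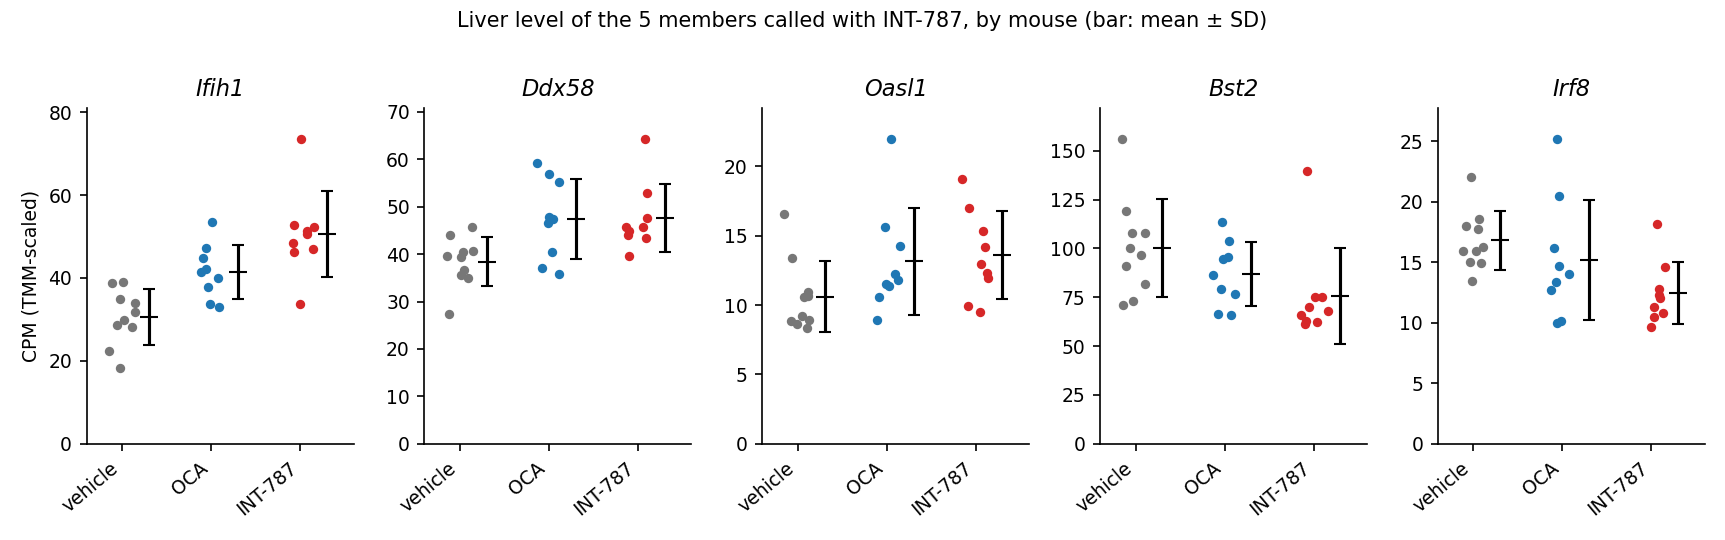
Level in CPM of the 5 members called with INT-787 (Ifih1, Ddx58, Oasl1, Bst2, Irf8) in each mouse of the vehicle, OCA and INT-787 groups, with the group mean and SD. Ifih1 was above all vehicle mice in 8 of 9 INT-787 mice, and Irf8 was below all vehicle mice in 7 of 9.

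Among the 12 antiviral effector genes, 1 was higher and 1 lower with INT-787, beside 10.2% of all genes higher and 9.48% lower, and 0 changed with OCA by edgeR, DESeq2 or limma-voom (1 at an unadjusted p under 0.05). Oasl1 (ENSMUSG00000041827, chr5:114923240-114937915, GRCm38) encodes a protein like the oligoadenylate synthetases that restrains translation of the mRNA of Irf7. It was at 8.37 CPM in the lowest vehicle mouse, 9.89 at the median and 16.6 in the highest. OCA mice were at 8.96, 11.8 and 21.99 CPM, and INT-787 mice at 9.52, 12.97 and 19.1 CPM. The groups overlapped widely, with 2 of 9 INT-787 mice above all vehicle mice and 8 of 9 above the vehicle median. Oasl1 had a log2 fold change of 0.41 (SE 0.15, edgeR adjusted p = 0.0489) with INT-787 and 0.37 (SE 0.15, edgeR adjusted p = 0.158) with OCA. In 20 of 28 fits without 1 mouse the call with INT-787 was lost, so it was the least stable of the higher members. It was kept without vehicle replicate 6 or 10, OCA replicate 2, 5 or 8, or INT-787 replicate 3, 6 or 9, and under 6 of 11 other alternatives, with adjusted p-values of 0.0222 to 0.109.

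Bst2 (ENSMUSG00000046718, chr8:71534255-71537456, GRCm38) encodes tetherin. It was at 70.9 CPM in the lowest vehicle mouse, 98.5 at the median and 156 in the highest. OCA mice were at 65.8, 86.2 and 114 CPM, and INT-787 mice at 61.3, 68.2 and 140 CPM. In 6 of 9 INT-787 mice it was below all vehicle mice, while INT-787 replicate 8 was at 140 CPM, with the next mouse of its group at 75.1. For Bst2 the log2 fold change was -0.41 (SE 0.15, edgeR adjusted p = 0.0495) with INT-787 and -0.21 (SE 0.15, edgeR adjusted p = 0.496) with OCA. Without INT-787 replicate 8 it was -0.57 (edgeR adjusted p = 0.00147). The call was also kept without vehicle replicate 1, 2 or 9 or OCA replicate 1, 2, 6 or 8, and lost in the other 20 fits without 1 mouse and under 5 of 11 other alternatives, with adjusted p-values of up to 0.113. The Bst2 promoter is shown because an ISRE and a GAS match (TTCNNNGAA) overlap in it. The stretch is chr8:71537573-71537622 (minus strand, RefSeq GRCm38.p6), with all matches in capitals.
Bst2: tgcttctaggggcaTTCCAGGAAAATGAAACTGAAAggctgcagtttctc
It lies between 150 and 101 bases before the start of the gene.

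The other 10 effectors did not pass the test in any comparison. They are the IFIT genes, whose proteins bind foreign RNA, the ubiquitin-like modifier Isg15 and the protease Usp18 that removes it, the oligoadenylate synthetase family, Rsad2, which encodes viperin, and Ifi44. With INT-787 their log2 fold changes ran from -0.56 for Oas1a (edgeR adjusted p = 0.125) to 0.31 for Ifit3 (edgeR adjusted p = 0.373). Isg15, often read as a sign of interferon exposure, was at a median of 4.92 CPM in vehicle mice, 5.88 in OCA mice and 5.32 in INT-787 mice, with the ranges of the groups overlapping. Its log2 fold change was 0.22 (95% interval -0.25 to 0.69) with INT-787 and 0.26 (95% interval -0.21 to 0.73) with OCA. Rsad2 was the effector with the estimate closest to 0, at 0.01 (95% interval -0.35 to 0.36) with INT-787. The DESeq2 and limma-voom fits called the same 2 effectors, Oasl1 and Bst2, with INT-787. Of the other 10, Oasl2 was called lower with INT-787 in 1 of 11 other alternatives. Oas1a was called lower in 1 of 28 fits without 1 mouse, that without INT-787 replicate 8 (-0.72, edgeR adjusted p = 0.0435).

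Of the 5 transcription factor genes, 1, Irf8, was lower with INT-787, beside 9.48% of all genes lower. With OCA 0 changed by edgeR, DESeq2 or limma-voom (0 at an unadjusted p under 0.05). Irf8 (ENSMUSG00000041515, chr8:120736358-120756694, GRCm38) is needed for the development of dendritic cells and monocytes. It was at 13.5 CPM in the lowest vehicle mouse, 16.1 at the median and 22.1 in the highest. OCA mice were at 9.96, 14.01 and 25.2 CPM, and INT-787 mice at 9.68, 12 and 18.2 CPM. In 7 of 9 INT-787 mice it was below all vehicle mice, and OCA mice reached both below and above the vehicle range. For Irf8 the log2 fold change was -0.41 (SE 0.14, edgeR adjusted p = 0.0405), or 0.754-fold, with INT-787 and -0.12 (SE 0.14, edgeR adjusted p = 0.738) with OCA. The call was kept under 10 of 11 other alternatives and in 16 of 28 fits without 1 mouse. It was lost without vehicle replicate 1, 3, 6, 7 or 9 or INT-787 replicate 1, 3, 4, 5, 6, 7 or 9, with adjusted p-values of up to 0.0732, and without vehicle replicates 5 and 6 together. The Irf8 promoter is shown because it holds a pair of GAS matches, in capitals, at chr8:120736168-120736227 (plus strand, RefSeq GRCm38.p6).
Irf8: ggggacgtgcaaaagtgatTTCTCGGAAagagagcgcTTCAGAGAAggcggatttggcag
The other 4 genes were Stat2 and Irf9, partners in the complex that binds the ISRE, Irf7, which amplifies type I interferon production, and Irf1, which interferon-gamma induces. Stat2 came closest, with a log2 fold change of 0.31 (SE 0.13, edgeR adjusted p = 0.0789) with INT-787 and 0.23 (SE 0.13, edgeR adjusted p = 0.343) with OCA. Irf1, Irf7 and Irf9 had estimates of 0.35, 0.26 and 0.07 with INT-787, each with an interval that held 0. Without INT-787 replicate 8 the estimates were -0.03, 0.10 and -0.05, so that those of Irf1 and Irf9 turned below 0.

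None of the 5 GTPase genes passed the edgeR test in any comparison, and 0 had an unadjusted p under 0.05. Limma-voom also called 0, and DESeq2 called Gbp3 with INT-787. Gbp2, Gbp3 and Gbp7 encode guanylate-binding proteins, and Igtp and Irgm1 immunity-related GTPases that act on vacuoles holding microbes. Igtp had the widest spread: vehicle mice were at 6.44 to 39.9 CPM with a median of 23.9, OCA mice at 13.3 to 89.8 with a median of 19.3, and INT-787 mice at 15.1 to 226 with a median of 18.1. The medians of both treated groups were thus below that of vehicle, and the highest value of each came from 1 mouse. The log2 fold change of Igtp with INT-787 was 0.75 (SE 0.46, edgeR adjusted p = 0.268), and -0.36 (edgeR adjusted p = 0.457) without INT-787 replicate 8. Gbp3 turned in the same way, from 0.08 (SE 0.32, edgeR adjusted p = 0.898) to -0.59 (edgeR adjusted p = 0.036) without that mouse. DESeq2 gave -0.57 (DESeq2 adjusted p = 0.0249) with all mice entered. Its default fit replaces outlying counts, and whether the count of INT-787 replicate 8 was replaced was not checked. The DESeq2 value is therefore not a separate estimate from all counts. No direction for Gbp3 can be read from these data.

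The 9 class I pathway genes encode the immunoproteasome subunits Psmb8, Psmb9 and Psmb10, the peptide transporter Tap1 and Tap2, the loading factor Tapbp, and B2m, H2-K1 and H2-D1 of the MHC molecule itself. With edgeR, DESeq2 and limma-voom, 0 of 9 changed with INT-787 (1 at an unadjusted p under 0.05 by edgeR) and 0 of 9 with OCA (0 at an unadjusted p under 0.05). H2-K1 was the gene closest to the threshold. It was at 960 CPM in the lowest vehicle mouse, 1286 at the median and 1748 in the highest, at 1160, 1366 and 1616 in OCA mice, and at 1372, 1474 and 2963 in INT-787 mice. Each INT-787 mouse was thus above the vehicle median, and the ranges overlapped. The log2 fold change of H2-K1 was 0.29 (95% interval 0.03 to 0.55, edgeR adjusted p = 0.103) with INT-787, and 0.14 (edgeR adjusted p = 0.357) without INT-787 replicate 8. Tapbp was the most tightly bounded class I gene with INT-787, with a log2 fold change of 0.02 (95% interval -0.20 to 0.23). Psmb8 was at a median of 34.2 CPM in vehicle mice and 25.7 in INT-787 mice, with a log2 fold change of -0.09 (edgeR adjusted p = 0.856). Without INT-787 replicate 8, which was at 113 CPM, it was -0.54 (edgeR adjusted p = 0.0164).

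The 6 class II pathway genes all had estimates below 0 with INT-787, but none passed the edgeR test (5 had an unadjusted p under 0.05). DESeq2 called H2-Aa and H2-DMa, and limma-voom H2-DMa, each lower. H2-Aa (chr17:34282744-34287823, GRCm38) encodes the alpha chain of the class II molecule H2-A. H2-Aa was at 158 CPM in the lowest vehicle mouse, 222 at the median and 462 in the highest, at 132, 194 and 563 in OCA mice, and at 133, 175 and 254 in INT-787 mice. In 3 of 9 INT-787 mice it was below all vehicle mice and in 8 of 9 below the vehicle median, while the highest OCA mouse was above all others. The log2 fold change was -0.59 (SE 0.22, edgeR adjusted p = 0.0554) with INT-787 and -0.19 (SE 0.22, edgeR adjusted p = 0.719) with OCA. With INT-787, H2-DMa, which helps exchange the peptide, was at -0.57 (edgeR adjusted p = 0.0571), and H2-Ab1, the beta chain of H2-A, at -0.57 (edgeR adjusted p = 0.0779). H2-Eb1, the beta chain of H2-E, was at -0.48 (edgeR adjusted p = 0.0922), and Cd74 at -0.44 (edgeR adjusted p = 0.11). Ciita, the master coactivator of the group, was at -0.28 (95% interval -0.74 to 0.18, edgeR adjusted p = 0.419), with a median of 4.34 CPM in vehicle mice and 3.65 in INT-787 mice. With OCA the estimates ran from -0.27 to 0.08, and 0 passed by edgeR, DESeq2 or limma-voom (0 at an unadjusted p under 0.05). The highest vehicle mouse was replicate 5 for both H2-Aa and H2-DMa, and without vehicle replicates 5 and 6 edgeR called 0 of the 6. The calls turned on the fit and on single mice. Of 11 alternatives that kept all INT-787 and vehicle mice or left out vehicle replicates 5 and 6, H2-DMa was called lower in 6, H2-Aa in 4, and H2-Ab1, H2-Eb1 and Cd74 in 1 each, the fit of the INT-787 and vehicle groups alone. Without INT-787 replicate 8, edgeR called 4 of the 6 (H2-Aa, H2-Ab1, H2-Eb1 and H2-DMa), and without OCA replicate 8, 5 of the 6 (all but Ciita), each lower.

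Pan-leukocyte markers were lower in the same INT-787 livers. The 3 pan-leukocyte markers summed to 120 to 179 CPM in vehicle mice (median 148), 106 to 238 in OCA mice (median 149) and 76.9 to 127 in INT-787 mice (median 110), and 3 of 3 were called lower with INT-787, with Ptprc (CD45) at a log2 fold change of -0.61 (edgeR adjusted p = 0.00273). Of 8 dendritic cell markers, whose sum was 25.6 to 44.1 CPM in vehicle mice and 18.3 to 31.0 in INT-787 mice, 1 of 7 tested was called lower, Itgax. Of 8 macrophage markers, summing to 443 to 669 CPM in vehicle mice and 335 to 565 in INT-787 mice, 2 were called lower, Cd68 and Csf1r, beside 9.48% of all genes. On the same list Marco and Timd4 had estimates above 0, at 1.74 (edgeR adjusted p = 0.0867) and 0.68 (edgeR adjusted p = 0.384), with Marco spread from 0.578 to 68.2 CPM among the INT-787 mice (mean 13.5, SD 23.5, n = 9). Of 4 B cell markers, at 0.919 to 5.37 CPM in vehicle mice and 1.34 to 3.63 in INT-787 mice, 1 of 2 tested was called lower, Cd79b. Among other cell types, 3 of 4 markers of lipid-associated macrophages, 3 of 4 of stellate cells and 1 of 4 of endothelial cells were called lower with INT-787, and 1 of 6 of hepatocytes higher. The endothelial call, Pecam1 (edgeR adjusted p = 0.0475), was lost in 17 of 28 fits without 1 mouse and in 4 of 11 other alternatives, and that of Trem2, on the lipid-associated macrophage list, in 8 of 28 and 2 of 11. Of the pan-leukocyte calls, that of Laptm5 was lost in 7 of 28 fits without 1 mouse and kept in 10 of 11 other alternatives, and that of Coro1a was lost in 1 of 28. The call of Gpnmb, on the lipid-associated macrophage list, was lost in 4 of 28. None of the 6 T cell, 1 NK cell, 3 neutrophil and 3 cholangiocyte markers tested was called by edgeR, with 0, 0, 1 and 1 at an unadjusted p under 0.05. With OCA the 1 marker called on these lists was Alb, which was higher. No marker of the 12 lists was at 0 in all mice. Their part in the values of Irf8, Bst2 and the class II genes was not tested, and in whole liver fewer cells of a type and less RNA per cell cannot be told apart.

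OCA and INT-787, which differ by the added hydroxyl group, were compared directly at the same dose and time in all 39 members, with p-values adjusted over the 12580 genes. None differed by edgeR, DESeq2 or limma-voom, and 1 member, Ifih1, had an unadjusted p under 0.05 by edgeR, beside 18.9% of all genes. Ifih1 was 0.29 log2 units higher with INT-787 than with OCA (95% interval 0.04 to 0.53, edgeR adjusted p = 0.184). Irf8 was at -0.29 (95% interval -0.58 to 0.00) and Bst2 at -0.20 (95% interval -0.51 to 0.11). Ddx58 had the narrowest interval around 0 of the called members, with a difference of 0.01 (95% interval -0.21 to 0.22). The 6 class II genes were at -0.30 to -0.45, with edgeR adjusted p-values of 0.2995 or more. The widest interval was that of Igtp, with a difference of 0.63 (95% interval -0.32 to 1.58). Without INT-787 replicate 8 Igtp was at -0.48 (edgeR adjusted p = 0.442), 5 of 5 GTPases and 28 of 39 members had an estimate below 0, and the median of the members moved from 0.06 to -0.20, with 0 called. For 10 of 39 members the interval of the difference lay inside -0.5 to 0.5, and for 37 inside -1 to 1. For the rest, differences of that size are within the interval. Ddx58 and Oasl1 were called against vehicle with INT-787 and not with OCA, and their differences between the agonists were 0.01 and 0.04. Both comparisons with vehicle used the same 10 vehicle mice.

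The largest values of the members came from a few mice rather than from a group. INT-787 replicate 8 was the highest of its 9 mice for 36 of 39 members, and the highest of all 28 mice for 23, while it was the highest of its group for 21.6% of all genes tested. The exceptions were Ddx58, Oasl1 and Rsad2. Relative to the median of the other INT-787 mice, Igtp was 13.04-fold, Gbp3 6.41-fold, Psmb9 5.68-fold and Irf1 3.75-fold higher in it. Irf1 was at 82.7 CPM in this mouse, with the next of its group at 28.5. All 5 GTPases, all 9 class I genes and all 6 class II genes were highest in it within the group, with median ratios of 4.07, 2.19 and 2.00 by role. Of the effectors it led 10 of 12, with Oas2 at 4.63-fold and Ifit3 at 3.15-fold. Because this mouse was picked out by these values, leaving it out lowers most of the estimates by selection. The counts that follow are therefore no separate test. Without this mouse, 29 of 39 members had an estimate below 0 with INT-787, the median log2 fold change was -0.15, and edgeR called 11 members (28.2%, beside 18.1% of all genes in the same fit), with Bst2, Irf8, Gbp3, Oas1a, Psmb8, H2-Aa, H2-Ab1, H2-Eb1 and H2-DMa lower and Ifih1 and Ddx58 higher.

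OCA replicate 2 was the highest of its 9 mice for 25 members, beside 9.96% of all genes, and led in all 5 GTPases, with Igtp at 89.8 CPM, Irgm1 at 105 CPM and Tap1 at 75.3 CPM. OCA replicate 8 led for 11 members, a share of the list not far above its 22.9% of all genes. Among the 11 were 5 of 6 class II genes, with Cd74 at 1222 CPM and H2-Aa at 563 CPM. Vehicle replicate 10 led for 15 members, beside 20.1% of all genes, among them 7 of 9 class I genes, with B2m at 5027 CPM and Psmb9 at 32.0 CPM. Among 10 further interferon-inducible GTPases, INT-787 replicate 8 and OCA replicate 2 were each the highest of their group in 10 of 10. This did not extend to each list: of 18 further class I pathway genes INT-787 replicate 8 led in 15 and OCA replicate 2 in 2, of 11 receptor and JAK-STAT genes they led in 3 and 4, and of 15 nucleic acid sensing genes in 4 and 6.

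Markers of other cell types also differed in these mice. The 6 T cell markers summed to 14.5 CPM in INT-787 replicate 8 (group median 5.45) and 16.3 CPM in vehicle replicate 10 (group median 5.23), and the 4 NK cell markers to 8.73 CPM (group median 2.36) and 8.75 CPM (group median 2.63). The pan-leukocyte sum of INT-787 replicate 8 was 79.2 CPM (group median 110.0), with Ptprc and Coro1a the highest of the group, at 16.6 and 16.8 CPM, and Laptm5 the lowest, at 45.9 CPM. Its dendritic cell, endothelial and stellate cell sums, at 18.3, 62.6 and 136 CPM, were the lowest of the group, although it was the highest of the group for 2 of 7 dendritic cell markers. In OCA replicate 2 the T cell and NK cell sums were 4.11 and 1.49 CPM, below the OCA medians of 5.39 and 2.45, while the 8 macrophage markers summed to 884 CPM (group median 454) and its lipid-associated macrophage and cholangiocyte sums, 679 and 27.5 CPM, were the lowest of the group (medians 1070 and 45.1). OCA replicate 8 had the highest sum of its group in 9 of the 12 marker lists, all but those of hepatocytes, macrophages and endothelial cells. Its sums were 238 CPM for the pan-leukocyte markers (median 149), 1932 CPM for 4 markers of lipid-associated macrophages (median 1070), 60.4 CPM for the dendritic cell markers (median 32.0), 1264 CPM for the stellate cell markers (median 605.5) and 122 CPM for the cholangiocyte markers (median 45.1). Their part in the levels of the members was not tested.

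**Figure D4:**
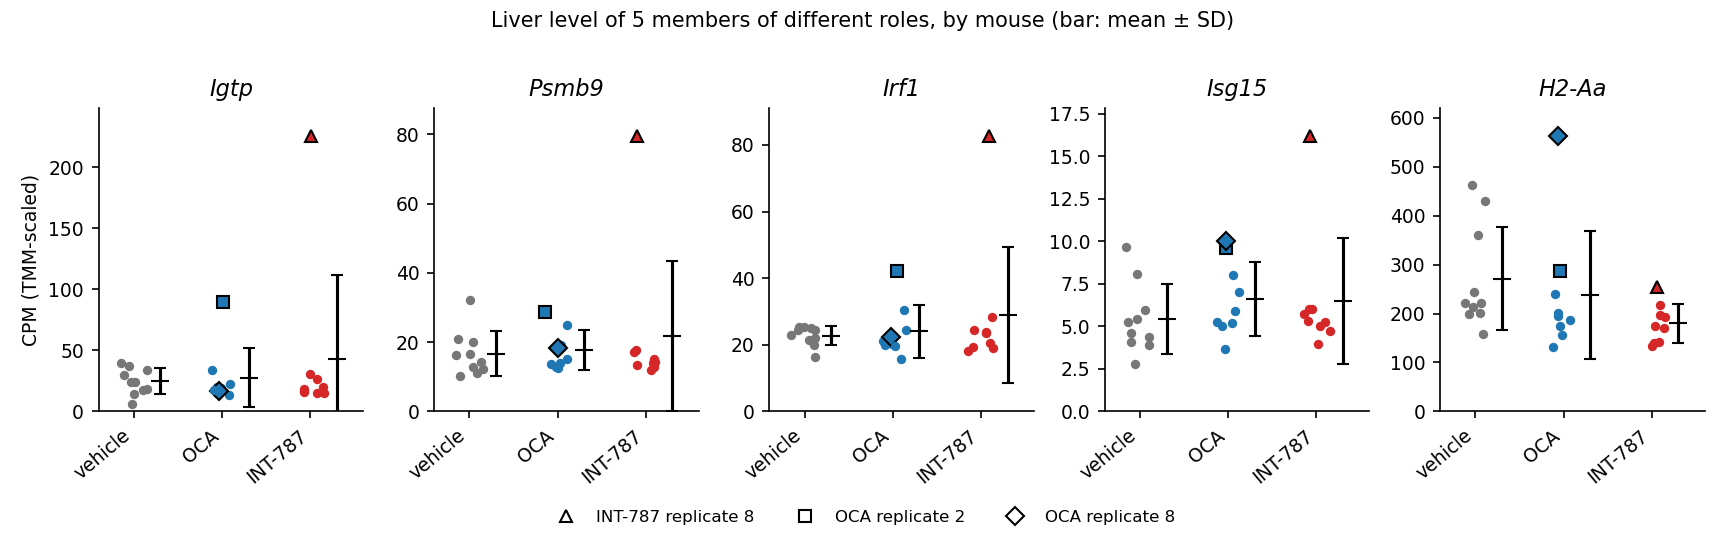
Level in CPM of Igtp, Psmb9, Irf1, Isg15 and H2-Aa in each mouse by group, with the group mean and SD, with the lower bar of Igtp and Psmb9 cut at 0. INT-787 replicate 8 (triangle) is the highest of its group for each, OCA replicate 2 (square) stands apart for Igtp at 89.8 CPM, and OCA replicate 8 (diamond) for H2-Aa at 563 CPM.

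**Figure D5:**
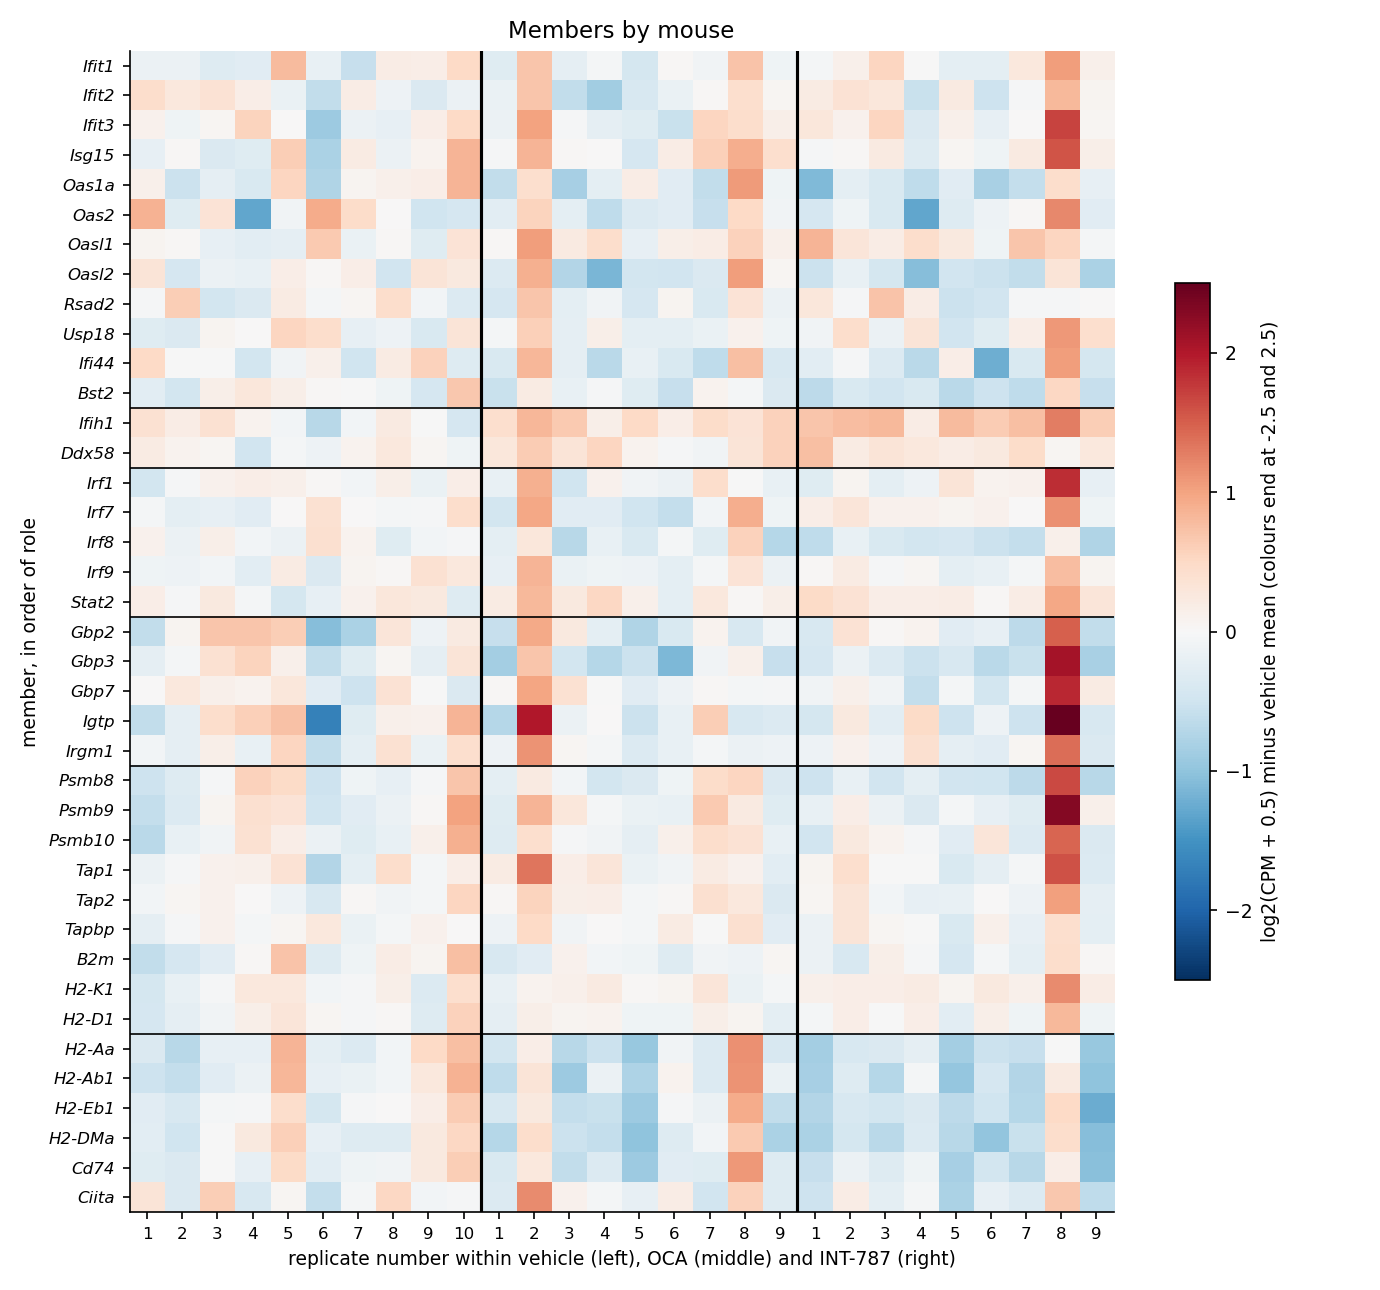
Log2 level of each member (rows, by role) in each of the 28 mice (columns, by group) relative to the mean of the vehicle mice, with a pseudocount of 0.5 CPM and colours that saturate at the ends of the scale. The column of INT-787 replicate 8 is the highest of its group for 36 of 39 members, and that of OCA replicate 2 for 25.

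Covariation between mice was measured in 8 chosen pairs of members, and other gene pairs were not measured for comparison. Pearson's r was computed over the 28 mice after each group's mean was subtracted, with two-sided permutation tests within groups and Benjamini-Hochberg adjustment over the 8 pairs. Cd74 with H2-Aa had r = 0.945 (rho = 0.917) and Gbp2 with Igtp r = 0.893 (rho = 0.868), each with a permutation p of 1e-05, the smallest these permutations can give (adjusted permutation p = 2.67e-05). Without the 2 mice farthest from the median of the first gene these were 0.903 and 0.834. Ifit1 with Isg15 followed with r = 0.791 (rho = 0.705, adjusted permutation p = 2.67e-05), and 0.693 without 2 mice. Psmb8 with Tap1 had r = 0.73 (rho = 0.66, adjusted permutation p = 0.00179) and H2-K1 with B2m r = 0.697 (rho = 0.577, adjusted permutation p = 0.00014), falling to 0.509 and 0.595 without INT-787 replicate 8 and vehicle replicate 10. Irf7 with Ifit3 had r = 0.621 (rho = 0.472) and Ciita with Cd74 r = 0.597 (rho = 0.647), both with an adjusted permutation p of 0.00305, and 0.55 and 0.517 without 2 mice. In vehicle mice alone Irf7 with Ifit3 turned to r = -0.322. Irf1 with Gbp2 had r = 0.662 (adjusted permutation p = 0.00179) and rho = 0.469 (adjusted permutation p = 0.0121). Its r was 0.308 (adjusted permutation p = 0.105) without OCA replicate 2 and INT-787 replicate 8, so the size of r depended on those mice. Within single groups, 3 pairs passed in vehicle mice, 4 in OCA mice and 6 in INT-787 mice.

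The promoters of the members were read for the letters of 4 motifs. RefSeq windows of 300 bases, 250 before and 50 after the start, were at hand for 33 of 39 members (40 windows), and not for Cd74, Ciita, H2-Ab1, Oas2, Tap2 and Usp18. The ISRE was searched as GAAA, any 2 bases and GAAA, on either strand. These letters were in 3.44% of 32851 windows of all genes and in 15 of 40 member windows, 1 window in each of 15 members. They were in 5 of 5 GTPase genes, 6 of 10 effector genes with a window, 2 of 2 RNA sensors, 1 of 5 transcription factors (Stat2), 1 of 8 class I genes (B2m) and 0 of 3 class II genes. The GAS letters TTCNNNGAA were in 8.3% of all windows and in 8 of 40 member windows, and the CCAAT box, on either strand, in 37.4% and in 20 of 40. The full inverted repeat that FXR can bind, AGGTCA followed after any 1 base by TGACCT, was in 0.00913% of all windows and in 0 of the member windows. Of the 5 members called with INT-787, Ifih1, Ddx58 and Bst2 had an ISRE match, Irf8 had GAS matches and Oasl1 had neither. The following stretches (RefSeq, GRCm38.p6) show the arrangement in 5 members with high values in single mice and in B2m, the most abundant member, with ISRE and GAS matches in capitals. They are chr11:58199496-58199545 (plus strand) for Igtp, chr3:142559984-142560023 (plus strand) for Gbp3, chr4:156200869-156200918 (minus strand) for Isg15, chr11:53769904-53769943 (plus strand) for Irf1, chr17:34198075-34198124 (plus strand) for Psmb8 and chr2:122147527-122147576 (plus strand) for B2m.
Igtp: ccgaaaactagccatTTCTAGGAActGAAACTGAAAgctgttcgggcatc
Gbp3: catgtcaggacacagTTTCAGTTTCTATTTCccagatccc
Isg15: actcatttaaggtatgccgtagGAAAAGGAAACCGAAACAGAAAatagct
Irf1: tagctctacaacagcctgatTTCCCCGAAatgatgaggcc
Psmb8: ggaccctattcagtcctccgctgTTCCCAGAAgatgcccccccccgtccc
B2m: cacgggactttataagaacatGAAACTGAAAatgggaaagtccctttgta
Igtp holds a GAS and an ISRE match side by side, Gbp3 and Isg15 hold overlapping ISRE matches, Irf1 and Psmb8 hold 1 GAS match each, and B2m holds 1 ISRE match. Matches are descriptions of letters, and no binding was measured.

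The interferons themselves were barely detected. Of 13 interferon genes in the table, 11 were at 0 counts in every mouse, which allows up to 3 counts, or 0.202 CPM at the median total count and 2.97 CPM at the lowest. Ifng, which encodes interferon-gamma, had 2 counts in vehicle replicates 1 and 4, 1 in OCA replicate 7, 3 in OCA replicate 8 and 4 in INT-787 replicate 8. Ifnk had 1 count in INT-787 replicate 1 and 3 in OCA replicate 9. None of the 13 passed the filter on low counts, so no difference in the ligands was detectable at this depth. These limits cover counting error only.

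Upstream of the members, receptor and JAK-STAT genes had 3 of 11 lower with INT-787 and 0 higher, beside 9.48% of all genes lower: Ifngr1 (-0.42, edgeR adjusted p = 0.0315) and Ifngr2 (-0.27, edgeR adjusted p = 0.0452), the chains of the interferon-gamma receptor, and Il10rb (-0.41, edgeR adjusted p = 0.0456), shared by receptors for interleukin-10 and interferon-lambda. Leaving out 1 mouse ended the call of Ifngr1 in 4, of Ifngr2 in 14 and of Il10rb in 16 of 28 fits, and Ifngr2 and Il10rb each kept it under 8 of 11 other alternatives. The rest of the list did not pass, and none passed with OCA by edgeR (0 at an unadjusted p under 0.05). Of 8 inhibitors of the pathway tested, 1 was lower with INT-787, Ptpn1, a phosphatase that acts on JAK kinases (-0.26, edgeR adjusted p = 0.0279). With OCA 1 was higher, beside 4.15% of all genes, namely Irf2, which opposes Irf1 (0.28, edgeR adjusted p = 0.0293). Among 15 other nucleic acid sensing genes, 1 was higher and 4 lower with INT-787, beside 10.2% and 9.48% of all genes. Tmem173, which encodes the adaptor STING, was at -0.62 (edgeR adjusted p = 0.00911), Irf5, which drives inflammatory cytokine genes, at -0.57 (edgeR adjusted p = 0.0416), and the kinase gene Ikbke at 0.39 (edgeR adjusted p = 0.00899). In the 28 fits without 1 mouse, the calls of Tmem173 and Ikbke were kept in 28, that of Irf5 in 19, and that of Irf2 with OCA in 21. With INT-787 the 2 sensor members were thus higher while Tmem173 was lower. Pan-leukocyte markers were also lower in these livers, and their part in the values of the lower receptor and sensing genes was not tested.

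Downstream, 4 of 37 other interferon-stimulated genes were higher and 10 lower with INT-787, beside 10.2% and 9.48% of all genes, led by Ifi27l2a (-0.86, edgeR adjusted p = 0.028), the DNA-binding Ifi204 (-0.72, edgeR adjusted p = 0.00217) and Phf11d (-0.69, edgeR adjusted p = 0.0343). The call of Ifi204 was kept in 28 of 28 fits without 1 mouse, that of Ifi27l2a in 23 and that of Phf11d in 19. With OCA 1 of 37 was higher, beside 4.15% of all genes, the membrane-anchored Ly6e (0.68, edgeR adjusted p = 0.00745), at a mean of 777 CPM in vehicle mice and 1249 in OCA mice. In the wider class I pathway 3 of 18 genes were higher with INT-787 and 0 lower, beside 10.2% of all genes higher: Nlrc5, the coactivator of class I genes (0.59, edgeR adjusted p = 0.0447), the nonclassical H2-T23 (0.50, edgeR adjusted p = 0.0039) and Rfx5, a subunit of the factor that CIITA and NLRC5 act through (0.40, edgeR adjusted p = 0.0103). The call of Nlrc5 was kept under 3 of 10 other alternatives and lost in 12 of 28 fits without 1 mouse, and without INT-787 replicate 8 its estimate was 0.32 (edgeR adjusted p = 0.181). In the wider class II pathway 2 of 12 were higher, Rfx5 being on both lists, and 3 lower. The lower genes were March1, which removes class II molecules from the surface (-0.81, edgeR adjusted p = 0.000291), and the endosomal proteases Ctss (-0.59, edgeR adjusted p = 0.00521) and Lgmn (-0.55, edgeR adjusted p = 9.17e-05). Ctss and Lgmn were also lower with INT-787 than with OCA, by -0.62 (edgeR adjusted p = 0.013) and -0.57 (edgeR adjusted p = 0.000446), the only genes of the further pathway lists that differed between the agonists. In this comparison, in which 3.19% of all genes were called lower and 2.19% higher, the 4 markers of lipid-associated macrophages were called lower under INT-787, namely Spp1 (-1.12), Gpnmb (-1.13), Trem2 (-0.90) and Cd9 (-0.40). Of 8 macrophage markers, 4 had estimates above 0 and 4 below, with Cd68 (-0.61) called lower and Marco (2.63, edgeR adjusted p = 0.0371) called higher. The call of Marco was lost in 9 of 28 fits without 1 mouse and made in 5 of 10 other alternatives, and its estimate ran from 1.38 to 3.24 over them. Called lower too were 1 of 3 pan-leukocyte markers (Laptm5, -0.56), 1 of 7 dendritic cell markers (Itgax, -0.73), 1 of 4 stellate cell markers (Col1a1, -1.59) and 1 of 6 hepatocyte markers (Serpina1c, -0.64, lost in 9 of 28 fits without 1 mouse), while 0 of 6 T cell markers passed by edgeR and 5 of these had estimates above 0. Their part in the values of Ctss and Lgmn was not tested. None of 3 catalytic subunits of the constitutive proteasome (1 at an unadjusted p under 0.05) and none of 10 other GTPases (0 at an unadjusted p under 0.05) passed by edgeR with INT-787.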

How the data were processed

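Liver poly(A) RNA was sequenced in 28 mice (stranded TruSeq library kit, NextSeq 500). The authors aligned reads to GRCm38 with STAR and deposited raw counts for 21935 genes, of which 4615 were at 0 in every mouse. The counting program, its strand setting and its filters are not given in the sources used here. Genes that share sequence (H2-K1, H2-D1 and other H2 genes, the Gbp and Oas families, Ifit3) and genes whose exons lie opposite those of another gene (Irf1, Irf7, Psmb9, Tap1, Tap2, H2-DMa, Ciita) are therefore uncertain. None of the 5 members called with INT-787 lies opposite another gene. Groups came from the GEO labels, and nothing there says whether mice of a group shared a cage or litter.

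Counts were tested here with the quasi-likelihood test of edgeR 4.0.16 in R 4.3.3 (filterByExpr, which kept 12580 genes, TMM scaling, 1 model of the 3 groups, Benjamini-Hochberg over all genes tested, calls at an adjusted p of at most 0.05). CPM used TMM-scaled totals. Intervals are at 95%. The alternatives were DESeq2 1.42.0, limma-voom (limma 3.58.1), 2 other scalings, 2 other filters, a robust fit, 2 groups alone, stricter thresholds, number blocks and leaving out each mouse. DESeq2 was run with its defaults, which replace outlying counts in groups of this size. Leaving out vehicle replicates 5 and 6 was chosen after seeing the data. Of the fits without 1 mouse, those without INT-787 replicate 8 or OCA replicate 8 were also singled out after seeing the data. Correlations used log2(CPM + 0.5) and 100000 permutations (Python 3.11.15). The edgeR script was tested on simulated data. The members, further lists and markers were chosen with earlier results of these data known. The naming rule was full statistics for members called in any comparison and ranges for the rest. Other members given with values were picked after these were seen. Of each further list at most the 3 called genes with the largest change per comparison were named.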

Additional observations from a re-analysis of the deposited data

Results flagged for a closer look

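In 117 combinations of member and group, 42 had a highest mouse far from the others by Dixon's test at 95%. For normally distributed values chance gives about 1 in 20. The test was run on CPM, which need not be so distributed, and the rate over all genes was not computed, so 42 has no chance rate beside it. Of these, 27 were in INT-787 replicate 8, 8 in OCA replicate 2, 5 in OCA replicate 8 and 2 in vehicle replicate 10, and genes of 1 role are not independent of each other.

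In INT-787 replicate 8 the effectors that stood apart were Ifit1 at 20.04 CPM, Ifit3 at 30.4 CPM, Isg15 at 16.2 CPM, Oas1a at 4.82 CPM, Oas2 at 2.304 CPM, Usp18 at 17.7 CPM, Ifi44 at 5.66 CPM and Bst2 at 139.8 CPM. The sensor Ifih1 was at 73.6 CPM. The transcription factors Irf1, Irf7, Irf9 and Stat2 were at 82.7, 62.3, 42.8 and 48.2 CPM. All 5 GTPases stood apart, with Gbp2 at 45.9, Gbp3 at 33.0, Gbp7 at 34.8, Igtp at 225.7 and Irgm1 at 126.4 CPM. Of the class I genes, Psmb8 was at 113.0, Psmb9 at 79.6, Psmb10 at 107.0, Tap1 at 90.1, Tap2 at 72.3, H2-K1 at 2963 and H2-D1 at 1452 CPM. Of the class II genes, H2-Eb1 was at 259.5 CPM and H2-DMa at 24.8 CPM.

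In OCA replicate 2, Usp18 was at 12.5, Irf9 at 45.1, Gbp2 at 31.2, Gbp7 at 18.45, Igtp at 89.8, Irgm1 at 104.7, Tap1 at 75.3 and Ciita at 10.7 CPM. In OCA replicate 8, Oas1a was at 7.69, H2-Aa at 563.1, H2-Ab1 at 439.8, H2-Eb1 at 350.2 and Cd74 at 1222 CPM. In vehicle replicate 10, Psmb9 was at 32.0 and Tap2 at 51.5 CPM. The cause was not tested. The report gives T cell and NK cell marker sums of INT-787 replicate 8, OCA replicate 2 and vehicle replicate 10, and the lists on which OCA replicate 8 was highest.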

How the results depend on the processing

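The direction of the 5 members called with INT-787 was kept under the alternatives run, and Ifih1 was called under each that refitted the counts. The number of members called with INT-787, 5, was 1 at an adjusted p of at most 0.01, 1 where a log2 change of 0.5 or more in size was also required, 3 (7.69% of members, beside 14.2% of all genes) with no filter on low counts, 8 (20.5% beside 19.3%) by DESeq2, 10 (25.6% beside 20.3%) from the 2 groups alone and 2 (5.13% beside 17.3%) without vehicle replicates 5 and 6. Leaving out 1 mouse gave 1 to 11: 1 without INT-787 replicate 1 or 7, 2 without vehicle replicate 3, 4, 5 or 6 or INT-787 replicate 3, 4 or 5, 3 without vehicle replicate 7, 9 or 10, OCA replicate 3, 4, 7 or 9 or INT-787 replicate 2, 6 or 9, 10 without OCA replicate 8 and 11 without INT-787 replicate 8. With OCA the count of 1 was 0 at an adjusted p of at most 0.01, with the fold minimum, under upper-quartile normalization and without vehicle replicates 5 and 6, and 0 to 2 without 1 mouse, with 2 without OCA replicate 6 or 7. Between the agonists it was 0 throughout. The 8 correlated pairs became 3 in vehicle mice alone and 4 in OCA mice alone, where fewer mice entered, and Irf7 with Ifit3 turned to r = -0.322 in vehicle mice. Gbp3 with INT-787 turned from 0.08 to -0.57 by DESeq2, -0.28 by limma-voom, -0.15 with the replicate block, -0.15 with the sample number set as a factor and -0.59 without INT-787 replicate 8. Psmb8 turned from -0.09 to 0.004 without vehicle replicate 10. Without 1 mouse, Gbp3 ran from -0.59 to 0.17 and Psmb8 from -0.54 to 0.004. The cause was not tested. Upper-quartile normalization moved the share of higher calls over all genes from 62.9% to 52.3% with OCA and from 40.8% to 32.2% between the agonists.

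The correlation of deviations over 27 pairs of mice with the same replicate number was -0.244 to 0.429 (median 0.077), with 11 over 0.1. Over 25 pairs from sets of neighbouring sample numbers it was -0.196 to 0.429 (median 0.105), with 13 over 0.1. By replicate number, 9 of 28 mice were closest to their own number. Whether either numbering pairs the mice was not tested. With the replicate block, 3 members were called with INT-787 (Ifih1, Irf8 and Oasl1), 1 with OCA and 0 between the agonists. With the sample number set as a factor, the counts were 3, 1 and 0. The filter of at least 10 counts in every mouse was set by vehicle replicate 6, the shallowest library, in which 13 of 39 members, among them Oas2, Oas1a, Isg15, Ifit3 and Gbp3, had fewer, so that they were not tested under it.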
